A study of Microtus ochrogaster and Microtus pennsylvanicus and Peromyscus californicus with 10 samples.

Results

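The protein IDs described here were at least 8-fold more abundant in the brain library of each of 2 monogamous rodents than in that of a nonmonogamous species of the same genus. They were chosen by their deposited values alone. An ID had to be listed in all 4 rodent tables, and its ratio of RPM (the read count scaled to the library's total by the authors) had to be at least 8 for Microtus ochrogaster over Microtus pennsylvanicus and at least 8 for Peromyscus californicus over Peromyscus maniculatus. This held for 129 of the 9375 IDs shared by the 4 tables (1.38%), out of 60949 IDs in the 10 tables of the series. These ratios are the selection itself, so they are given as a description and without a test.

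The series asks whether brain transcript profiles tied to monogamy are conserved among vertebrates, and the rodents are 4 of its 10 species. Each species is 1 library made from fore- and midbrain RNA of 3 pooled reproductive males. The labels name no strain, age or treatment, and the mating systems were assigned from general knowledge of the species. M. ochrogaster (the prairie vole) and P. californicus (the California mouse) are the monogamous ones, and M. pennsylvanicus (the meadow vole) and P. maniculatus (the deer mouse) their nonmonogamous relatives. With 1 library per species, a ratio between partners has no replicate check, and variation between animals within a pool cannot be seen. Differences between species in the RNA, the dissection and the mapping of reads to the same reference IDs cannot be told apart.

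Monogamous rodents form lasting bonds with a mate, and in both monogamous species named here the males help to rear the young. Work on the prairie vole has tied pair bonding to oxytocin and vasopressin, their receptors and the dopamine pathway of the forebrain. None of the 129 IDs could be placed in these pathways. The tables carry Ensembl protein identifiers with the prefix ENSRNOP and no gene names, and the gene table used here, which is of the prairie vole, matched 0 of the 129 members and 0 of the 60949 IDs in the series. A match needed a shared identifier, so the 0 says nothing about which genes the members are. The roles of the members, and the markers of brain cell types, were therefore not analysed here. In bulk tissue, fewer cells of a type and less RNA per cell cannot be told apart.

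The 4 libraries differed in size. The RPM scale rested on 274693175 reads in the prairie vole and on 75649532 to 101971826 in the other 3. The number of listed IDs was 18547 in the prairie vole and 13167 to 14200 in the others, and the lowest listed value was 0.131 RPM in the prairie vole, 0.0925 in the meadow vole, 0.0118 in the California mouse and 0.0588 in the deer mouse. An ID that a table does not list has no value, so it could not become a member.

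The number of members was set beside the numbers obtained when the labels within a pair were exchanged. With the labels of the Peromyscus pair exchanged, 108 IDs passed (1.15%), that is, IDs 8-fold higher in the prairie vole and in the deer mouse. With the vole labels exchanged it was 47 (0.501%), and with both exchanged, meaning lower in both monogamous species, 29 (0.309%). On the deposited scale the members thus outnumbered both the IDs lower in both and those of the Peromyscus exchange. The sizes of these differences depended on how the libraries were scaled. On the deposited scale the median log2 ratio over all shared IDs was 0.12 for the vole pair and 0.22 for the Peromyscus pair, both above 0. With TMM scaling, which moved these medians to 0.03 and -0.03, 101 IDs were higher in both monogamous species, 37 were lower in both and 113 passed with the Peromyscus labels exchanged. The members were thus 4.45 times as many as the IDs lower in both on the deposited scale and 2.73 times with TMM, and the order of members and Peromyscus exchange turned. With DESeq2 size factors the numbers were 103, 37 and 110.

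**Figure D1:**
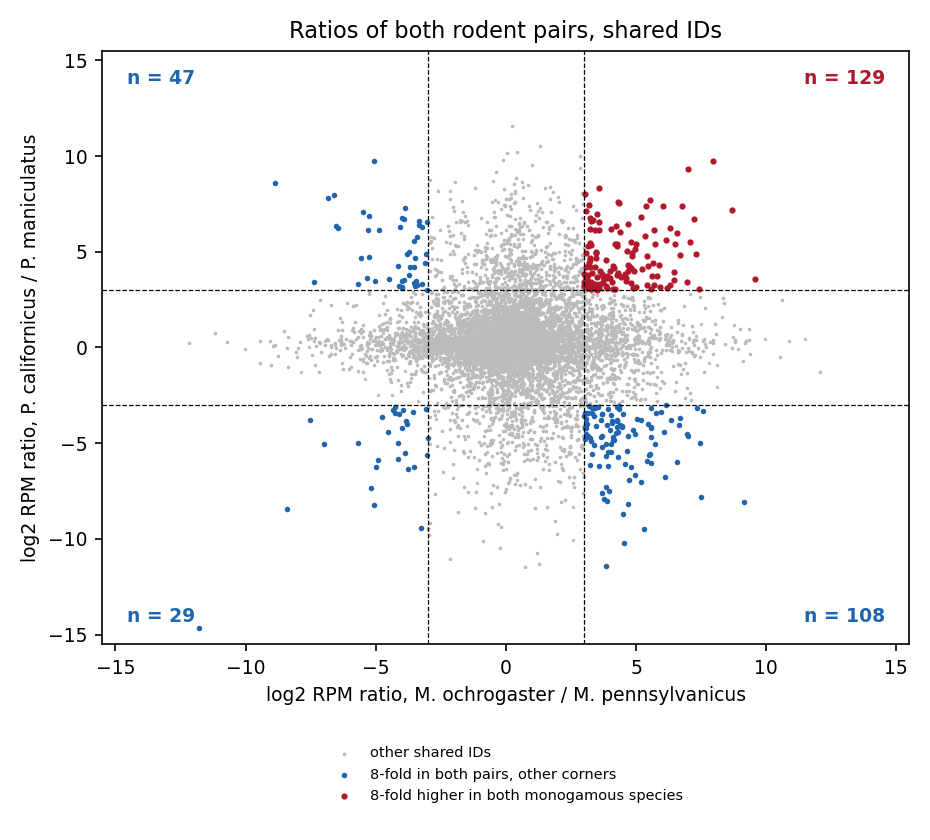
Each point is 1 of 9375 shared IDs, with the log2 RPM ratio of the vole pair on the x axis and of the Peromyscus pair on the y axis. Dashed lines mark 8-fold, and the corners hold 129 members (upper right), 108 IDs with Peromyscus labels exchanged (lower right), 47 with vole labels exchanged (upper left) and 29 lower in both (lower left).

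Both counts with the prairie vole on the high side were the large ones. The prairie vole was 8-fold above the meadow vole at 986 IDs (10.5%), and the meadow vole above the prairie vole at 554 (5.91%). The California mouse was 8-fold above the deer mouse at 783 IDs (8.35%), and the reverse held for 550 (5.87%). The 129 members made up 13.1% of the 986 IDs high in the prairie vole and 16.5% of the 783 IDs high in the California mouse. Of the same 986 vole IDs, 11.0% were 8-fold higher in the deer mouse. The IDs high in the prairie vole therefore held more Peromyscus differences than all IDs did in either direction, with 13.1% against 8.35% upward and 11.0% against 5.87% downward. With TMM scaling these were 10.9% against 7.24% and 12.2% against 6.53%. The 554 IDs high in the meadow vole did not show this on the deposited scale, with 8.48% against 8.35% upward and 5.23% against 5.87% downward. The 13.1% and 11.0% are the members and the Peromyscus exchange expressed as shares, so they add no separate evidence. The IDs were not matched for level. Exchanging labels is a description of these 4 libraries and gives no error for the count.

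The order of the 4 counts was examined at other thresholds on the deposited scale, where the median log2 ratio of both pairs lay above 0. These thresholds were not counted with other scaling, which turned the order of members and Peromyscus exchange at 8-fold. At 2-fold in both pairs, 859 IDs were higher in both monogamous species and 631 passed with the Peromyscus labels exchanged. At 4-fold the counts were 355 and 280. At 16-fold both were 44, and at 32-fold they were 18 and 11. IDs lower in both monogamous species were fewest at each of the 5 thresholds, with 246 at 2-fold and 5 at 32-fold.

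**Figure D2:**
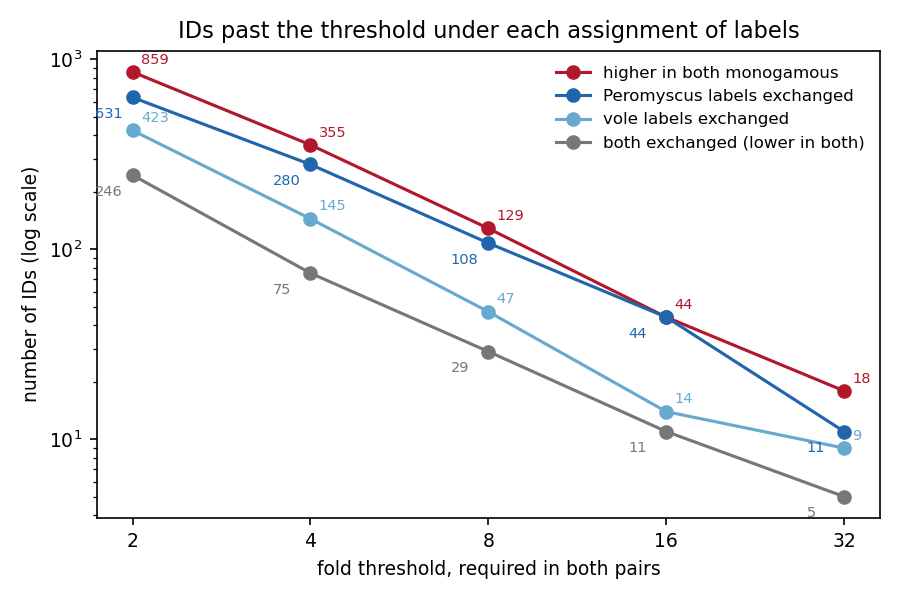
The number of IDs past a fold threshold in both pairs (y axis, log scale) is plotted against the threshold (x axis) for the true labels and the 3 exchanged assignments. The lines for the true labels and for exchanged Peromyscus labels meet at 44 IDs at 16-fold, and the line for IDs lower in both stays below the others. All counts are on the deposited scale.

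Among the members, the ratio in the voles ran from 8.04 to 751 with a median of 18.3, and that in the Peromyscus mice from 8.07 to 845 with a median of 18.6. The medians over all 9375 shared IDs were 1.09 and 1.17. The smaller of a member's 2 ratios was under 10 for 48 members and under 16 for 85. It was at least 16 for 44 members, at least 32 for 18, at least 64 for 7 and at least 128 for 3. The larger ratio was that of the voles in 65 members and that of the Peromyscus mice in 64, and in 62 members the 2 ratios lay within 2-fold of each other. In 15 members they lay 8-fold or more apart.

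In the monogamous libraries the members had levels near the library's median, and in the nonmonogamous ones low levels. In the prairie vole their values ran from 2.65 to 1258 RPM with a median of 22.6, where the median over all shared IDs was 23.0 RPM. In the California mouse they ran from 1.0 to 2241 RPM with a median of 26.0, against 29.7 RPM for all. In the meadow vole the members had a median of 0.991 RPM (0.159 to 77.5), against 22.7 RPM for all shared IDs, and in the deer mouse 1.27 RPM (0.108 to 36.1), against 23.3 RPM. By rank among the shared IDs, the median member stood at percentile 49.7 in the prairie vole and 46.5 in the California mouse, but at 6.91 in the meadow vole and 8.43 in the deer mouse. The rule fixes the size of the ratio, and not which side of it departs from the library's median. The IDs of the Peromyscus exchange had the same shape, with medians of 27.3 RPM in the prairie vole and 30.5 in the deer mouse on their high side, and of 1.08 RPM in the meadow vole and 0.677 in the California mouse on their low side. The other sets differed on their high side. The vole exchange had medians there of 68.0 RPM in the meadow vole and 58.8 in the California mouse. The IDs lower in both had 60.9 RPM in the meadow vole and 74.1 in the deer mouse. These lay above the medians of all shared IDs. Together the members took 0.745% of the listed counts in the prairie vole and 1.03% in the California mouse, and 0.0301% in each nonmonogamous library.

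**Figure D3:**
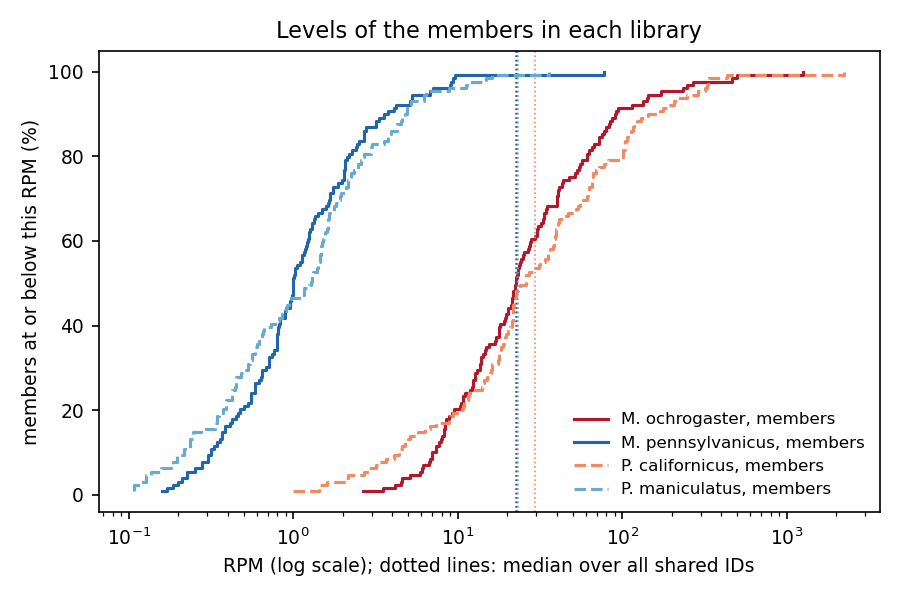
The share of the 129 members at or below a level (y axis, percent) is plotted against RPM (x axis, log scale) for each library, and dotted lines mark the median of all shared IDs in each library. The 2 nonmonogamous curves have medians of 0.991 and 1.27 RPM, and the 2 monogamous curves cross 50% at 22.6 and 26.0 RPM, close to the medians of all shared IDs.

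The low side of the ratios rested on few reads. Of the members, 66 were under 1 RPM in the meadow vole, where 6.99% of all shared IDs were, and 60 in the deer mouse, where 6.9% were. In the meadow vole 83 members had fewer than 100 counts and 8 fewer than 20, with a lowest count of 12. In the deer mouse 60 had fewer than 100 and 10 fewer than 20, with a lowest count of 11. No member had fewer than 727 counts in the prairie vole, and 1 had fewer than 100 in the California mouse. Counting error alone, taken as the exact (Clopper-Pearson) 95% interval of each ratio, left 85 members with both lower ends at 8 or above. For the other 44 the lower end of at least 1 ratio fell under 8, and the smallest was 4.93. Under the same demand the IDs with Peromyscus labels exchanged numbered 82.

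Both nonmonogamous libraries were under 5 RPM for 109 of the 129 members, as for 11.3% of all shared IDs. When every value under 1 RPM was raised to 1 RPM, 95 members stayed past 8-fold in both pairs, and 76 IDs passed with the Peromyscus labels exchanged. With values under 5 RPM raised to 5 RPM, 25 members remained, against 18 IDs with exchanged Peromyscus labels and 27 with exchanged vole labels. At this floor the members no longer outnumbered the IDs of the vole exchange. In terms of mean level over the 4 libraries, 104 members lay in the lowest of 3 equal parts of the shared IDs, 22 in the middle part and 3 in the highest. The IDs of the Peromyscus exchange were spread alike, with 86, 18 and 4. The IDs lower in both monogamous species had 14, 9 and 6, and those of the vole exchange 26, 18 and 3.

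**Figure D4:**
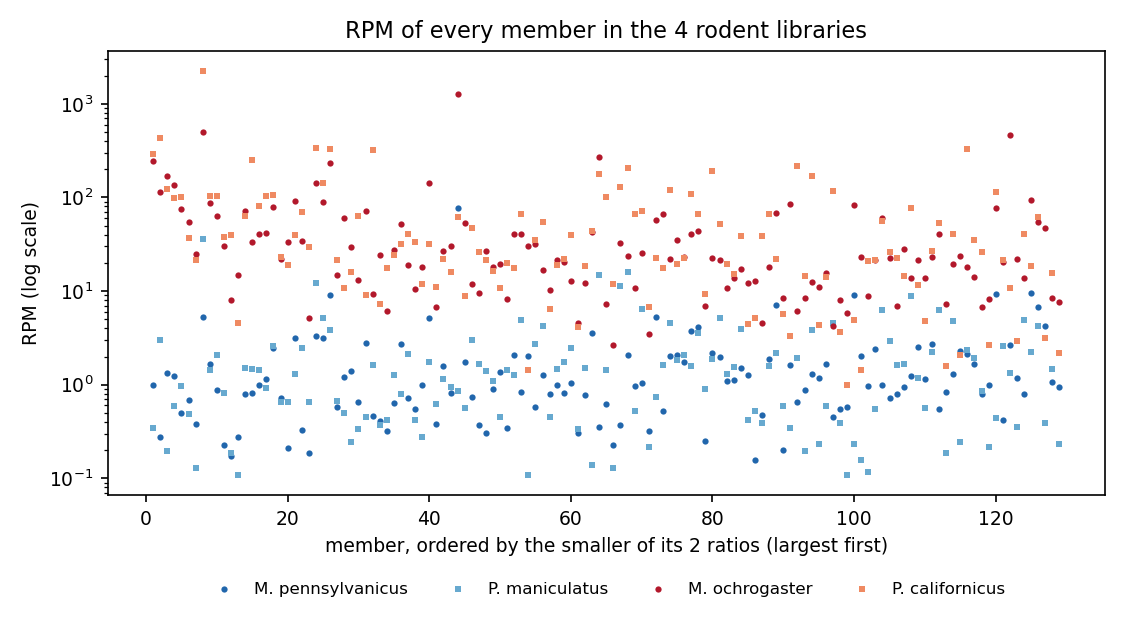
RPM (y axis, log scale) of each of the 129 members in the 4 rodent libraries, with members ordered along the x axis by the smaller of their ratios. Circles are voles and squares Peromyscus mice, red tones the monogamous and blue tones the nonmonogamous species, and the blue points lie mostly under 5 RPM.

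The rule compares species only within a genus, so the levels of one genus could lie above those of the other. In 122 of 129 members both monogamous libraries were above both nonmonogamous ones, as they were in 20.4% of all shared IDs. The sets with exchanged labels had the same trait, with both high libraries above both low ones in 103 of 108 IDs (Peromyscus exchange), 47 of 47 (vole exchange) and 29 of 29 (both exchanged). The gap between the lower monogamous and the higher nonmonogamous value had a median of 8.77-fold and reached 249-fold, and was at least 8-fold in 75 members. Over all shared IDs it was at least 8-fold in the same 75, because such a gap forces both ratios past the threshold. The gap is thus a description of the selection. The 7 members outside the 122 overlapped. The most abundant of them was ENSRNOP00000039268, which had 1258 RPM in the prairie vole, 77.5 in the meadow vole, 61.2 in the California mouse and 0.853 in the deer mouse. The nonmonogamous vole was here above the monogamous Peromyscus species. By ratio the overlap was largest in ENSRNOP00000010551, with 9.03 RPM in the meadow vole against 4.97 in the California mouse. The other 6, in order of their smaller ratio, were ENSRNOP00000028584, ENSRNOP00000029409, ENSRNOP00000010551, ENSRNOP00000015499, ENSRNOP00000012463 and ENSRNOP00000016797. ENSRNOP00000029409 was the single one of the 7 in which the Peromyscus mice were the higher genus, at 116 and 4.55 RPM against 4.19 and 0.449 RPM in the voles. These 7 are named for their overlap, after their values were seen.

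The 10 members with the largest smaller ratio, among those with at least 10 counts in each library, are given one by one. ENSRNOP00000018043 had 247 RPM in the prairie vole and 290 in the California mouse, against 0.991 RPM in the meadow vole and 0.343 in the deer mouse. Its ratios were 249 in the voles (95% counting interval 199 to 316) and 845 in the Peromyscus mice (607 to 1213). The 2 high values differed by 1.18-fold, and the low values stood on 75 and 35 counts. ENSRNOP00000058920 had 115 RPM in the prairie vole and 434 in the California mouse, against 0.278 and 3.03 RPM in their partners. Its vole ratio of 415 rested on 21 counts in the meadow vole (interval 272 to 671), and its Peromyscus ratio was 143 (128 to 161). Both values of this ID were higher in the Peromyscus species than in the vole of the same mating system.

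ENSRNOP00000030631 had 171 RPM in the prairie vole and 124 in the California mouse, against 1.34 and 0.196 RPM, the last from 20 counts. Its ratios were 128 (106 to 158) and 631 (409 to 1034). ENSRNOP00000003556 had 134 and 98.4 RPM in the monogamous species against 1.24 and 0.588 RPM, with ratios of 108 and 167. In both of these IDs the vole was above the Peromyscus species of the same mating system. ENSRNOP00000063995 had 75.9 and 101 RPM against 0.502 and 0.971 RPM, with ratios of 151 and 104. ENSRNOP00000026726 had 54.8 RPM in the prairie vole, 36.6 in the California mouse, 0.687 in the meadow vole and 0.481 in the deer mouse. Its ratios, 79.7 for the voles and 76.2 for the Peromyscus pair, were nearly equal.

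ENSRNOP00000014883 was the least abundant of the 10 in both monogamous libraries, at 25.0 RPM in the prairie vole and 21.6 in the California mouse, against 0.383 and 0.127 RPM. Its Peromyscus ratio of 169 rested on 13 counts in the deer mouse (interval 98.7 to 318), and its vole ratio was 65.3. ENSRNOP00000050393 was the most abundant of the 10, at 499 RPM in the prairie vole and 2241 in the California mouse, against 5.27 in the meadow vole and 36.1 in the deer mouse. Its low values rested on 399 and 3677 counts, so its ratios of 94.6 (85.7 to 105) and 62.1 (60.2 to 64.2) had the narrowest counting intervals of the 10 relative to their size. ENSRNOP00000036805 had 87.4 and 103 RPM against 1.68 and 1.45 RPM, with ratios of 52.0 and 71.2. ENSRNOP00000036545 had 63.2 and 104 RPM against 0.886 and 2.08 RPM, with ratios of 71.3 and 49.8. In all 10 IDs the 2 monogamous values lay above the 2 nonmonogamous values, by 13.8-fold or more.

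**Figure D5:**
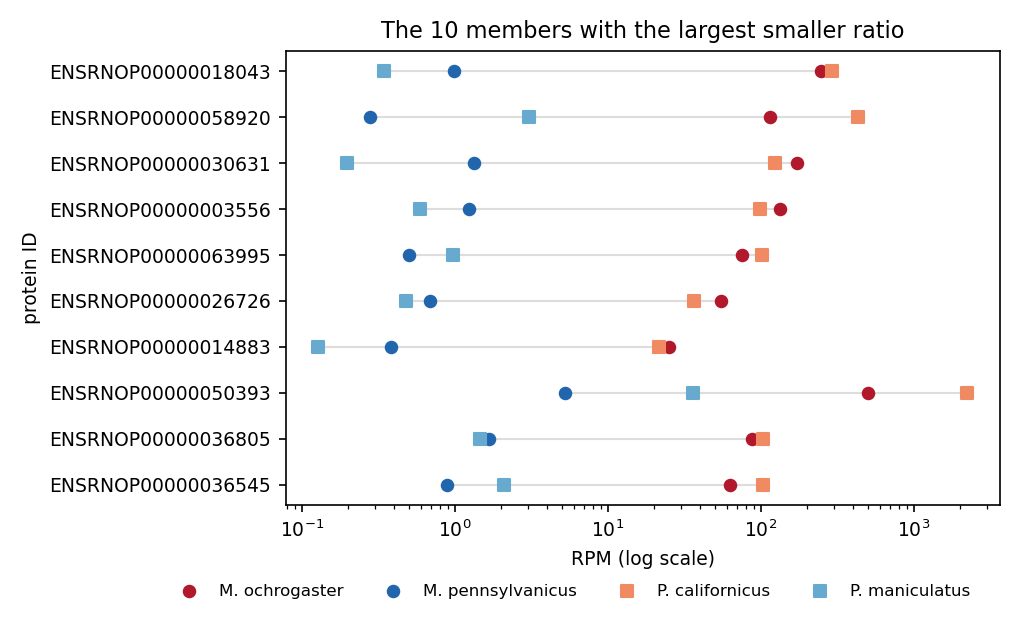
RPM (x axis, log scale) in the 4 libraries for the 10 members with the largest smaller ratio, 1 ID per line. Red and orange points are the monogamous species and blue points the nonmonogamous ones, and on each line the 2 groups are separated, from 249-fold for ENSRNOP00000018043 to 13.8-fold for ENSRNOP00000050393.

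By level, the 5 highest members, ranked by the smaller of the monogamous values, included ENSRNOP00000050393 and ENSRNOP00000018043. Next came ENSRNOP00000029640, with 236 RPM in the prairie vole and 328 in the California mouse, against 9.15 and 3.80 RPM. It was followed by ENSRNOP00000065179, at 268 and 177 RPM against 0.357 RPM in the meadow vole and 14.8 in the deer mouse. The vole ratio of this ID, 751, was the largest of all members, and its Peromyscus ratio was 11.97. The last of the 5, ENSRNOP00000067233, had 141 and 337 RPM against 3.32 and 12.2 RPM. In all, 7 members reached 100 RPM in both monogamous libraries, and 9 stayed under 10 RPM in both. The 5 highest members of each library held 39.0% of the summed member RPM in the prairie vole and 37.9% in the California mouse.

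Members that were high and also moderately abundant on the low side were few. Only 6 members had 10 RPM or more in a nonmonogamous library. ENSRNOP00000039268 (77.5 RPM) had it in the meadow vole. The other 5 had it in the deer mouse, namely ENSRNOP00000050393 (36.1 RPM), ENSRNOP00000052007 (16.2 RPM), ENSRNOP00000065179 (14.8 RPM), ENSRNOP00000067233 (12.2 RPM) and ENSRNOP00000022688 (11.2 RPM). ENSRNOP00000052007 and ENSRNOP00000022688 are named only for this level, after their values were seen. The 3 members in the highest part by mean level were ENSRNOP00000050393, ENSRNOP00000029640 and ENSRNOP00000039268.

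At the threshold the division was narrow. Just inside, ENSRNOP00000016797 had a smaller ratio of 8.07, ENSRNOP00000026065 of 8.07 and ENSRNOP00000005876 of 8.04. Just outside, ENSRNOP00000053347 had 7.99, ENSRNOP00000002933 7.97 and ENSRNOP00000051993 7.96. ENSRNOP00000005876 had 7.65 RPM in the prairie vole and 0.952 in the meadow vole, and ENSRNOP00000053347 had 7.61 and 0.952 RPM, so an ID on each side of the line had nearly the same vole values.

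The contrast between genera was not used by the rule. The prairie vole was above the California mouse in 56 members and below it in 73, so 43.4% of members and 48.7% of all shared IDs were higher in the vole. The meadow vole was above the deer mouse in 63 members and below it in 66. The 2 monogamous values lay within 2-fold of each other in 43.4% of members and 49.3% of all shared IDs. The 2 nonmonogamous values did so in 34.9% of members and 54.9% of all. An 8-fold excess of the prairie vole over the California mouse was seen in 9 of 129 members, against 8.98% of all shared IDs. The reverse was seen in 9 of 129, against 8.38%. The meadow vole exceeded the deer mouse 8-fold in 9 of 129 members, against 6.95% of all shared IDs. The reverse held in 5 of 129, against 8.82%. In the first 3 of these 4 comparisons the members' share was near that of all IDs, and in the last it was lower.

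The most unequal members between the monogamous libraries were these. ENSRNOP00000056613 had 463 RPM in the prairie vole and 10.9 in the California mouse, against 2.68 and 1.32 RPM in the nonmonogamous species, a 42.4-fold excess of the prairie vole. ENSRNOP00000030374 had 84.1 and 3.27 RPM (25.7-fold) and ENSRNOP00000028584 30.2 and 1.45 RPM (20.8-fold). On the other side, ENSRNOP00000060992 had 6.13 RPM in the prairie vole and 214 in the California mouse, against 0.648 and 1.95 RPM in their partners, a 35.0-fold excess of the California mouse. ENSRNOP00000024152 had 9.23 and 321 RPM (34.8-fold) and ENSRNOP00000029409 4.19 and 116 RPM (27.7-fold).

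Over the 129 members, log2 RPM in the prairie vole and the California mouse correlated at r = 0.38 (Spearman's rho 0.34), and over all shared IDs at r = 0.52 (rho 0.56). For the meadow vole and the deer mouse the values were r = 0.16 (rho 0.16) in the members and 0.60 (rho 0.65) in all. These describe points from the same libraries with no p. The rule leaves the members a narrow range of levels in the nonmonogamous libraries, and its part in these values was not tested.

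The genus contrast was tested over all 9375 shared IDs with edgeR's quasi-likelihood test and mating system as a covariate, a fit with 1 residual degree of freedom. It called 0% of IDs and 0 of the 129 members (lowest adjusted p in edgeR 0.899). Of the members, 13 (10.1%) had an unadjusted p under 0.05, as did 4.21% of all IDs. Without the mating covariate it was 0 members, against 571 of the 9375 IDs. In that fit the mating difference, which the rule makes large in members, goes into the residual. Its count of members therefore says nothing about their difference between genera. In ENSRNOP00000039268, the member with the smallest unadjusted p, the log2 difference of voles over Peromyscus mice was 5.42 ± 0.86 (approximate SE), with an adjusted p of 0.899 in edgeR. The residual of the fit with the covariate is the difference between the 2 pair ratios, which the rule restricts in members. Their unadjusted p-values are therefore not comparable with those of all IDs. DESeq2's Wald test called 12 of the 129 members (7 higher in voles, 5 in Peromyscus), and 537 of the 9375 IDs (5.73%). It fitted the same terms, mating system and genus, so the rule's restriction of the residual applies there too. Its count of members is therefore not comparable with its share of all IDs. For the mating contrast, which did choose the members, the same edgeR fit called 0% of the 9375 IDs, with 232 at an unadjusted p under 0.05, and DESeq2 called 283 IDs. Nothing about the members is read from it.

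The members' ID numbers, which the rule did not use, were compared with those of all shared IDs. Numbers above 60000 belonged to 25 members (19.4%) and to 12.7% of all shared IDs. In the exchanged sets they belonged to 13.0% (Peromyscus exchange), 10.6% (vole exchange) and 6.9% (both exchanged, 2 IDs). Numbers up to 20000 belonged to 37 members (28.7%) and to 39.4% of all shared IDs. In the exchanged sets, in the same order, these were 38.9%, 42.6% and 37.9%. The IDs were not matched for level. No 2 members had numbers within 5 of each other, the closest being 6 apart. What the number bands stand for was not tested.

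IDs that 2 tables lack could not enter the rule, and they were counted apart. The tables of the prairie vole and the California mouse both listed 752 IDs that neither nonmonogamous table had, of which 70 reached 10 RPM in both. The prairie vole and the deer mouse alone shared 1068 such IDs, with 68 at 10 RPM in both. The pairs without the prairie vole shared far fewer, 98 in the 2 nonmonogamous species and 92 in the meadow vole with the California mouse. With unlisted IDs set to the lowest listed RPM of their library, 1020 IDs were 8-fold higher in both monogamous species and 1501 passed with the Peromyscus labels exchanged, against 176 and 191 in the other 2 assignments. This fill was 0.0118 RPM in the California mouse and 0.0588 in the deer mouse. An ID unlisted in the California mouse thus passed 8-fold at a lower partner value than one unlisted in the deer mouse. The counts with this fill therefore do not compare the assignments on equal terms. The high counts again went with the prairie vole, the library with the most reads. Among listed IDs, thinning all libraries to the smallest depth gave 126 and 108, close to 129 and 108. Thinning took only IDs already listed in every rodent table and leaves each expected ratio as it was. The closeness therefore concerns counting noise only and says nothing about depth and the high counts of the prairie vole. The part of depth in which IDs are listed was not tested.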

How the data were processed

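The deposited tables, 1 for each of the 10 libraries, pair protein IDs with raw counts and RPM, per the file headers. The authors' RPM is the count scaled by 1 constant per library, and the listed counts sum to 93.8% to 95.6% of it in the 4 rodent tables. The submitters' processing notes name Trimmomatic, BWA and SAMtools. Not given in the sources used here are their versions, the reference and the handling of reads that match several IDs. Tables of the other clades share no ID with the rodents.

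Ratios were taken from deposited RPM with no prior count. Intervals are exact binomial at 95% and cover counting error only. The members and lists were chosen with earlier results of these data known. Named members follow a fixed rule: the 10 largest by smaller ratio (at least 10 counts in each library), the 5 highest by smaller monogamous RPM, 3 on each side of the threshold, and 3 at each end of the ratio between monogamous libraries. Members named only for overlap, or for 10 RPM or more in a nonmonogamous library, lie outside this rule and were chosen after their values were seen. Gene lists and cell type markers could not be applied without symbols. Raw counts were tested with edgeR 4.0.16 (TMM, filterByExpr, quasi-likelihood, Benjamini-Hochberg adjustment at 0.05) and DESeq2 1.42.0 in R 4.3.3. The approximate SE is the log2 difference divided by the square root of F. Scripts were tested on simulated data. Alternatives covered scaling, filters, thresholds, thinning, listing and left-out libraries.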

Additional observations from a re-analysis of the deposited data

How the results depend on the processing

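Counts are given in the order higher in both monogamous species, Peromyscus labels exchanged, vole labels exchanged, lower in both (129, 108, 47 and 29 on the deposited scale). On the same scale they were 355, 280, 145 and 75 at 4-fold, 44, 44, 14 and 11 at 16-fold, and 18, 11, 9 and 5 at 32-fold. With a floor of 100 counts in each library they were 28, 18, 24 and 17, and 3, 4, 3 and 6 in the most abundant of 3 equal parts of the IDs. With unlisted IDs at the lowest listed RPM of their library, a fill that differed between libraries, they were 1020, 1501, 176 and 191. Values under 5 RPM raised to 5 RPM, an alternative chosen after seeing the data, gave 25, 18, 27 and 14. The demand on the lower end of the counting interval left 85 higher in both. TMM, DESeq2 size factors, centring and a prior count gave 100 to 103 members, all among the 129, 109 to 113 IDs under the Peromyscus exchange and 36 to 37 lower in both. The members outnumbered that exchange in 9 of 16 alternatives, all of which kept the deposited scale. They did so in none of the rescaled ones (TMM, DESeq2 size factors, centring and a prior count). The alternatives reuse the same libraries, so the tally is no separate evidence for the order. Members with no overlap between mating systems were 28 of 28 with at least 100 counts and 24 of 25 with values raised to 5 RPM, against 122 of 129. The share over all shared IDs was 20.4% on the deposited scale and was not counted under these settings. The exchanged sets were separated too on the deposited scale, in 103 of 108, 47 of 47 and 29 of 29 IDs, so the separation goes with the selection. DESeq2's Wald test called 537 IDs and 12 members in the genus contrast and 283 IDs in the mating contrast, where edgeR called 0 in every fit, those without 1 library included. The cause was not tested. The genus served as the block of the mating contrast, and without it 307 IDs had an unadjusted p under 0.05 in edgeR, against 232. Thinning to the smallest depth kept 124 of the 129 members, and a floor of 10 counts kept 129. On their low side 8 members had fewer than 20 counts in the meadow vole and 10 in the deer mouse.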
